A study of Mus musculus with 35 samples.

Results

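The nuclear genes for the subunits of the mitochondrial respiratory chain and ATP synthase were followed across 35 Affymetrix arrays of type 1 conventional dendritic cells (cDC1) from mouse spleen. Members were chosen by gene symbol (Nduf followed by a, b, c, s or v and a number, Sdha to Sdhd, Uqcr, Cox4 to Cox8, and Atp5). This gave 80 of the 19938 genes with 1 symbol on the array, 34 in complex I, 4 in complex II, 8 in complex III, 17 in complex IV and 17 in complex V. Ndufs5 was left out because it lies close to Mycl, and Ndufa4 is counted by its symbol with complex I. Ndufab1 and Cyc1, which are also subunits, fall outside the symbol patterns. Clusters that carried several symbols (3 of Cox7c with Gm12338, 2 of Ndufb4 with Ndufb4b) were not used. For the 16 members with more than 1 cluster the one with the highest mean level was taken.

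The arrays formed 4 sets. Set 1 compared Mycl knockout cells (KO, genotype MyclGFP/GFP, 4 arrays) with heterozygous cells (MyclGFP/+, 5 arrays) at steady state. Set 2 compared Mycl KO (5 arrays) with Mycl+/+ wild-type cells (WT, 5 arrays) at steady state. In set 3, Mycl KO and WT mice (5 arrays each) had been injected with poly IC (100 µg), a mimic of viral double-stranded RNA, 5 h before the spleens were taken, and in the Mxd1 set mice labelled Mxd1-/- and Mxd1+/+ (3 arrays each) had received the same dose 18 h before. Both alleles of Mycl in KO cells, and 1 allele in heterozygous cells, are written in the labels as GFP alleles, so the control of set 1 carries 1 such allele too. cDC1 were purified by fluorescence-activated sorting. The labels name biological replicates without saying whether each came from a separate mouse, so p-values measure the spread between these samples.

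Complexes I and II pass electrons from NADH and succinate to coenzyme Q, complex III passes them on to cytochrome c, and complex IV hands them to oxygen. Complexes I, III and IV pump protons across the inner mitochondrial membrane, and complex V, the ATP synthase, uses that gradient to make ATP. MYCL is a transcription factor related to MYC that dendritic cells express, and MXD1, which also pairs with MAX, acts as a repressor at sites that MYC proteins use. The comparisons address what each factor does to gene expression in cDC1. Resting dendritic cells rely on oxidative phosphorylation, and activated ones shift towards glycolysis.

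Levels are the authors' deposited log2 values. The median log2 level of an array lay between 6.50 and 6.57 for set 1 but between 5.47 and 5.53 for set 3, so the sets were treated as normalized separately and differences were taken only within a set. Mycl itself was low in the KO groups (6.96 ± 0.16 in KO against 9.84 ± 0.11 in heterozygous cells of set 1, SD, n = 4 and 5, and 5.65 ± 0.14 in KO against 9.67 ± 0.11 in WT cells of set 2, n = 5 each). In set 3 it was 8.87 in library 3 labelled KO and 5.52 to 6.14 in the other 4 KO libraries, against 9.03 to 9.81 in WT. Ndufs5, close to Mycl, was 7.96 in that library and 6.31 to 7.03 in the other 4 KO libraries, against 7.65 to 8.34 in WT. Its levels go against its label, and it is called the library labelled KO 3. Ifit1, an interferon-induced gene, stood at 6.09 and 7.29 in WT libraries 1 and 4 of set 3, between 10.82 and 11.25 in the other 3 WT libraries, and between 10.93 and 11.55 in KO libraries. WT libraries 1 and 4 thus stood far below the other poly IC libraries in Ifit1, while their Mycl was at the WT level. At steady state in set 2, which was normalized separately, Ifit1 lay between 4.31 and 4.69. Whether WT libraries 1 and 4 had a weak response to poly IC or none was not tested. The main results of set 3 are given with and without WT libraries 1 and 4 and the library labelled KO 3. Mxd1 was 10.51 ± 0.11 in the libraries labelled Mxd1 KO and 10.82 ± 0.20 in WT libraries (n = 3 each, adjusted p = 0.26 in limma), so these libraries are called by their label only. All 12 of 12 cDC1 markers, Xcr1 and Clec9a among them, lay at or above the filter level on every array.

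Most subunits lay slightly lower in Mycl KO than in control cells in the 2 steady-state Mycl sets, and in set 3 the direction depended on 2 libraries. In set 1, 64 of 78 tested members (82.1%) lay below 0 on the log2 fold change scale, against 48.7% of all 14023 genes tested, with a median of -0.06. In set 2 the share was 52 of 79 (65.8%), against 47.1% of 14012 genes, with a median of -0.05. In set 3, after poly IC, it was 49 of 78 (62.8%), against 50.3% of 14033 genes, with a median of -0.07, and 22 of 78 with a median of 0.05 without WT libraries 1 and 4. In the Mxd1 set the direction was the other way, with 63 of 78 members above 0, 15 below (19.2%, against 50.6% of 14080 genes), and a median of 0.11. Without WT library 1 of that set, 44 of 78 lay below 0 and the median was -0.02.

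**Figure D1:**
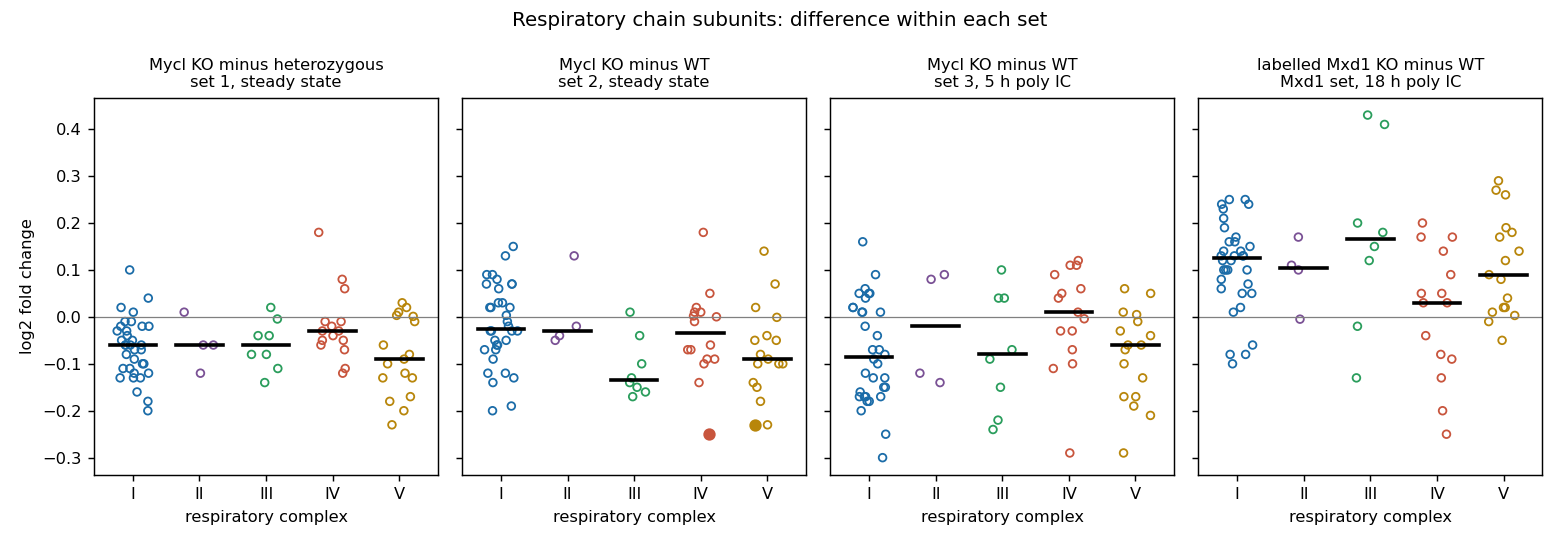
Log2 fold change (y axis) of each tested subunit (points, spread sideways at random), grouped by complex (x axis), in the 4 comparisons within sets, tested group minus control. Bars are medians, filled points have an adjusted p under 0.05 (limma). Only Cox7a2l (complex IV) and Atp5d (complex V) of set 2 are filled. Most points lie below 0 in the Mycl sets, though not in complexes II and IV of set 3, and above 0 in the Mxd1 set. The direction turned in set 3 without WT libraries 1 and 4, and in the Mxd1 set without WT library 1.

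Few single subunits passed limma's test over all genes. No member passed in set 1, where 0.0214% of all genes did. At an unadjusted p under 0.05, 5 members (6.41%) lay lower and 1 (1.28%) higher in set 1, against 8.45% and 5.75% of all genes. In set 2, 2 members fell (2.53%), against 2.36% of all genes that fell and 6.14% called in either direction, so this share was close to that of all genes. At an unadjusted p under 0.05, 12 members (15.2%) lay lower in KO cells of set 2 and 3 (3.8%) higher, against 8.56% and 12.7% of all genes. Over both steady-state sets in 1 fit, 5 of 79 members fell (6.33%) and 0 rose, against 2.43% of all genes that fell and 4.43% called in either direction. In the same fit 64 members (81.0%) lay below 0, against 46.0% of genes. At an unadjusted p under 0.05, 15 (19.0%) lay lower there and 1 (1.27%) higher, against 9.03% and 9.58% of genes. Of the 12 cDC1 markers, 5 rose and Cd8a fell in set 2, and 5 rose and 0 fell over both steady-state sets, where 3.78% and 2.01% of all genes rose. The cDC1 marker mean of set 1 was 11.38 to 11.52 in KO and 11.18 to 11.36 in heterozygous cells, without overlap. For set 2 it was 10.73 to 10.86 in KO and 10.66 to 10.79 in WT cells. The part of these differences in the result was not tested. That fit uses the same arrays as sets 1 and 2 and is not independent of them.

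A part of the chain lay on the same side of 0 in all 3 Mycl sets. Of 78 members, 34 (43.6%) lay below 0 in all 3 Mycl sets, which share no arrays, against 17.6% of the 13176 genes tested in all 3. Only 5 members (6.41%) lay above 0 in all 3, against 18.0% of genes. The shares below 0 in the single sets (82.1%, 65.8% and 62.8% of members) by themselves raise the count below 0 in all 3. These counts therefore restate that tilt, and whether the same subunits agreed between sets beyond it was not tested. By complex, 14 of 34 subunits of complex I, 2 of 4 of complex II, 4 of 8 of complex III, 5 of 15 of complex IV and 9 of 17 of complex V lay below 0 in all 3 sets. The count depended on the set 3 libraries: it was 18 of 78 (23.1%, against 15.0% of genes) without WT libraries 1 and 4, and 32 (41.0%, against 16.6%) without these and the library labelled KO 3.

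**Figure D2:**
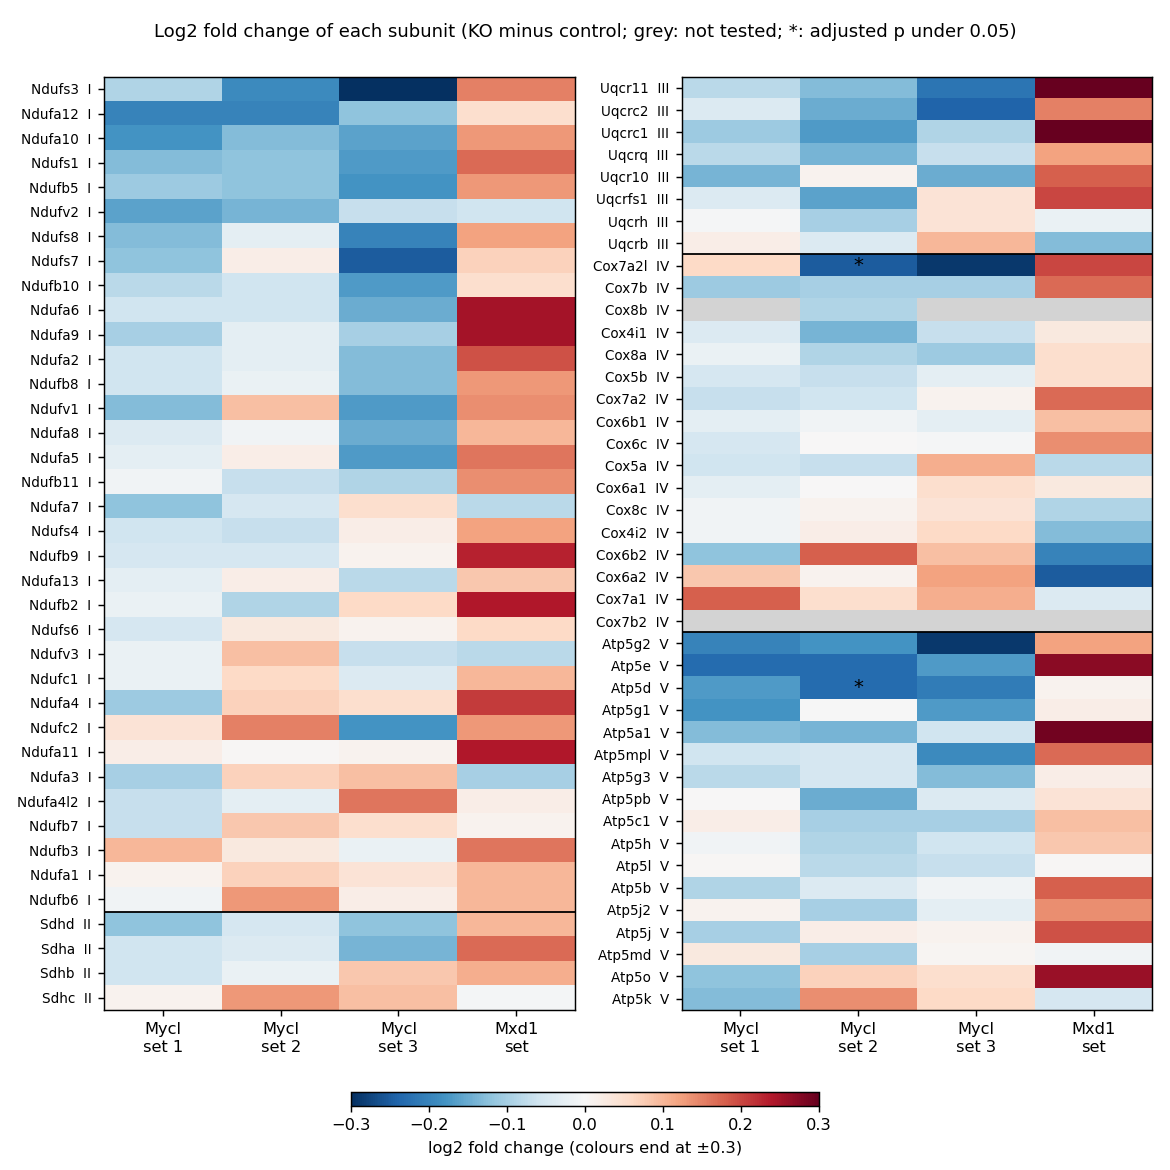
Log2 fold change (colour, tested group minus control, ends of the scale at 0.3) of all 80 subunits (rows, with their complex) in the 4 comparisons within sets (columns). Within a complex, rows run from the lowest to the highest mean over the 3 Mycl sets, grey cells were not tested, and stars mark an adjusted p under 0.05. Blue in the upper rows of the Mycl columns follows from this order. Red dominates the Mxd1 column.

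The ATP synthase held 3 of the 5 subunits that fell over both steady-state sets. Atp5d and Atp5e encode the delta and epsilon subunits of the central stalk, which turns inside the catalytic head. Atp5d was 10.07, 10.02, 10.08 and 10.21 in KO and 10.06, 10.45, 10.32, 10.21 and 10.30 in heterozygous cells of set 1. In set 2 it was 8.90, 8.92, 9.05, 8.99 and 9.12 in KO and 9.32, 9.26, 9.26, 9.07 and 9.21 in WT cells. In both sets the groups overlapped by a single control array, heterozygous library 1 and WT library 4, apart from a tie at 10.21. Atp5d fell by 0.23 ± 0.06 (SE, adjusted p = 0.045) in set 2 and by 0.20 ± 0.05 over both sets (adjusted p = 0.0184). Its call in set 2 held under 5 of 16 alternative settings, with adjusted p from 0.0284 to 0.116.

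Atp5e was 9.96, 10.05, 10.06 and 10.28 in KO and 10.12, 10.42, 10.37, 10.20 and 10.48 in heterozygous cells of set 1, and 8.86, 8.96, 9.25, 8.94 and 9.17 in KO and 9.24, 9.38, 9.15, 9.29 and 9.28 in WT cells of set 2. The highest KO arrays (library 4 of set 1, libraries 3 and 5 of set 2) lay within the control range. Atp5e fell by 0.23 ± 0.06 over both sets (adjusted p = 0.0252), with the same log2 fold change of -0.23 in set 1 (adjusted p = 0.284) and set 2 (adjusted p = 0.0875). The stalk subunits gave -0.21 (Atp5d) and -0.17 (Atp5e) in set 3 without passing the test (adjusted p = 0.361 and 0.37). Without WT libraries 1 and 4 they gave -0.10 and -0.15, and -0.15 and -0.21 when the library labelled KO 3 was left out too.

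The c subunit, which forms the rotating ring in the membrane, is encoded by 3 genes (Atp5g1, Atp5g2 and Atp5g3) whose mature protein is the same. Atp5g1 and Atp5g3 were added here for that reason after their values were seen. Their promoters differ. Below are 250 bases before to 50 after the start site from RefSeq (GRCm38.p6), all on the minus strand: Atp5g1 at chr11:96075582-96075881, Atp5g2 at chr15:102670998-102671297 and Atp5g3 at chr2:73911277-73911576. Capitals mark an E-box (CACGTG, the site bound by MYC and MAX proteins) in Atp5g1 and Atp5g3, and in Atp5g2 a palindrome (GCGCA directly followed by its reverse complement TGCGC) that is the core of the site of the nuclear respiratory factor NRF1, a regulator of respiratory genes.

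Atp5g1: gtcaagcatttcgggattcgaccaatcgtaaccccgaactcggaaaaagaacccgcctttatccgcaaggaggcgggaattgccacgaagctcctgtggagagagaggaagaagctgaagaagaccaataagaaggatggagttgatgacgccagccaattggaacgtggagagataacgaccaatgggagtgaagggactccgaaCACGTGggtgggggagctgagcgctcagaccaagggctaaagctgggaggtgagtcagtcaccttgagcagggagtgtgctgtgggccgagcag

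Atp5g2: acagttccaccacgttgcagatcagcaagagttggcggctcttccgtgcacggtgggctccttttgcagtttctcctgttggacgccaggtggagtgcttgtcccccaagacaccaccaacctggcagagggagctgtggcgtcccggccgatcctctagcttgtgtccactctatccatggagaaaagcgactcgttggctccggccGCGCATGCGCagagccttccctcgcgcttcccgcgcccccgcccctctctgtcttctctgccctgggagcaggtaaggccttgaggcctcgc

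Atp5g3: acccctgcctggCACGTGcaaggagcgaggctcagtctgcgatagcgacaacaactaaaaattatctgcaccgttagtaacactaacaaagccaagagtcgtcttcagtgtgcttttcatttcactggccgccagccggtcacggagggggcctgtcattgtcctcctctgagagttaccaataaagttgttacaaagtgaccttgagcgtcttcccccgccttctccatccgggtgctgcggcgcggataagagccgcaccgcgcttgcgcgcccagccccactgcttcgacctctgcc

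The first base of the match lay 44 (Atp5g1), 42 (Atp5g2) and 238 (Atp5g3) bases before the start. Both motifs read the same on both strands, and no member held both. Of the 65 members found in the promoter table, 6 (9.23%) held the E-box in this window (Atp5g1, Atp5g3, Atp5l, Atp5pb, Ndufa7 and Ndufv1), against 8.09% of 27025 genes. The NRF1 palindrome stood in 5 members (7.69%: Atp5g2, Atp5k, Cox6a1, Ndufa11 and Uqcrc1), against 1.07% of genes. These are exact matches of letters, so near matches were not counted, and they are not measured binding. Whether a motif has a part in the levels of these genes was not tested.

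Of the 3 genes for subunit c, Atp5g2 was the one that fell over both steady-state sets. It was 9.60, 9.53, 9.71 and 9.78 in KO and 9.71, 9.87, 9.98, 9.85 and 9.89 in the heterozygous group of set 1. In set 2 the levels were 8.56, 8.61, 8.82, 8.62 and 8.69 in KO and 8.74, 8.86, 8.83, 8.90 and 8.85 in WT cells of set 2. Only heterozygous library 1 and KO libraries 3 and 4 of set 1, and KO library 3 and WT library 1 of set 2, crossed into the other group's range. Atp5g2 fell by 0.19 ± 0.04 over both sets (adjusted p = 0.0135). In set 3 it was 8.22, 8.12, 8.45, 8.22 and 8.29 in KO and 8.77, 8.42, 8.40, 8.72 and 8.42 in WT cells, a log2 fold change of -0.29 ± 0.10 (adjusted p = 0.292), or -0.15 ± 0.08 without WT libraries 1 and 4. Its other 2 clusters gave log2 fold changes close to the one used (-0.18 in the cluster used, -0.18 and -0.20 in the others, in set 2).

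Atp5g1 averaged 9.50 ± 0.09 in KO and 9.68 ± 0.20 in heterozygous cells of set 1, and 8.61 ± 0.14 in KO and 8.61 ± 0.04 in WT cells of set 2 (adjusted p = 0.408 and 0.996). Atp5g3 averaged 10.63 ± 0.07 in KO and 10.71 ± 0.10 in heterozygous cells, and 9.73 ± 0.07 in KO and 9.78 ± 0.03 in WT cells. Whether Atp5g2 differed from Atp5g1 and Atp5g3 in its response was not tested.

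Other parts of the ATP synthase gave smaller values. In set 2 the 5 KO arrays of Atp5a1, the alpha subunit of the catalytic head, lay between 9.97 and 10.15, and the WT arrays between 10.16 and 10.23. The groups did not overlap, by a margin of a single step in the second decimal, and the log2 fold change was -0.14 ± 0.05 (adjusted p = 0.147). Atp5k, a small membrane subunit at the dimer interface, was at the other end of complex V, with a log2 fold change of 0.14 ± 0.06 in set 2 (adjusted p = 0.192) and -0.13 ± 0.09 in set 1. Over complex V, 12 of 17 members lay below 0 in set 1, 14 in set 2 and 13 in set 3, with medians of -0.09, -0.09 and -0.06. In set 3 it was 7 without WT libraries 1 and 4, and 14 without these and the library labelled KO 3.

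**Figure D3:**
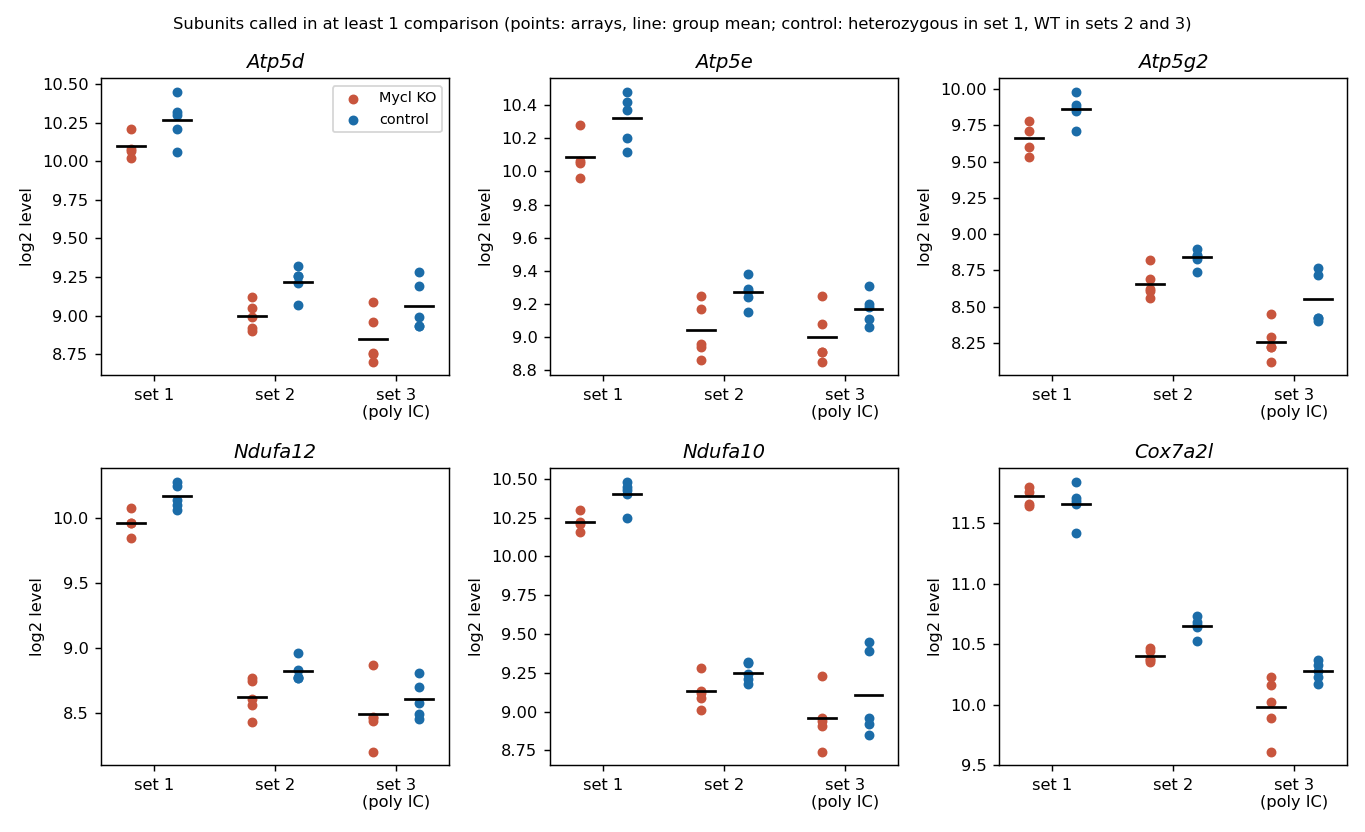
Log2 level (y axis) per array (points) of the 6 subunits that passed limma's test in set 2 or over both steady-state sets, in Mycl KO (left of each pair) and control cells (right), with group means as lines. Levels of different sets are not comparable. KO means lie below control means in every panel and set except for Cox7a2l in set 1. In set 3 this depends on WT libraries 1 and 4: without them the log2 fold change of Ndufa10 was 0.05, against -0.16 with them.

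Complex I, the largest complex, held the 2 other subunits that fell over both sets. Ndufa12 is an accessory subunit of the matrix arm, where NADH is oxidised. In set 1 it was 10.08, 9.85, 9.96 and 9.96 in KO and 10.06, 10.14, 10.28, 10.10 and 10.25 in heterozygous cells, while its levels in set 2 were 8.43, 8.61, 8.77, 8.56 and 8.75 in KO and 8.96, 8.83, 8.77, 8.77 and 8.78 in WT cells. The groups touched or overlapped through KO library 1 and heterozygous library 1 in set 1 and KO library 3 in set 2. Ndufa12 fell by 0.20 ± 0.05 over both sets (adjusted p = 0.0159), with log2 fold changes of -0.20 in each. In set 3 Ndufa12 gave -0.12 ± 0.12 (adjusted p = 0.62). Without WT libraries 1 and 4 it gave -0.02 ± 0.12, and -0.12 ± 0.09 when the library labelled KO 3 was left out too.

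Ndufa10, an accessory subunit on the matrix side of the membrane arm, was 10.22, 10.16, 10.21 and 10.30 in KO and 10.25, 10.45, 10.43, 10.40 and 10.48 in heterozygous cells of set 1. It was 9.01, 9.13, 9.12, 9.09 and 9.28 in KO and 9.18, 9.24, 9.21, 9.32 and 9.31 in WT cells of set 2. KO library 4 and heterozygous library 1 in set 1, and KO library 5 in set 2, made the ranges overlap. Ndufa10 fell by 0.15 ± 0.04 over both sets (adjusted p = 0.0315). Its call held under 15 of 24 alternative settings (adjusted p up to 0.0764), against 20 for Atp5e, 23 each for Atp5d and Ndufa12, and 24 for Atp5g2. In set 3 Ndufa10 gave -0.16 ± 0.14 (adjusted p = 0.564). Without WT libraries 1 and 4 the sign turned (0.05 ± 0.10), and it was -0.02 ± 0.08 when the library labelled KO 3 was left out too.

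In complex I as a whole, 30 of 34 members lay below 0 in set 1 (median -0.06), 19 in set 2 (median -0.02) and 22 in set 3 (median -0.09). In set 3 it was 6 (median 0.05) without WT libraries 1 and 4, and 19 (median -0.01) without these and the library labelled KO 3. Ndufs3, a core subunit of the part that reduces coenzyme Q, gave the lowest value in set 3, -0.30 ± 0.18 (adjusted p = 0.422). There it was 8.46, 8.41, 8.99, 8.52 and 8.35 in KO and 9.34, 8.60, 8.58, 9.15 and 8.56 in WT cells, so WT libraries 1 and 4 stood apart from the other WT libraries and the library labelled KO 3 from the other KO libraries. Without WT libraries 1 and 4 the value was -0.03 ± 0.12, and -0.14 ± 0.07 without all 3. At the other end, the accessory subunits Ndufb3 in set 1 (0.10 ± 0.08, adjusted p = 0.564) and Ndufc2 in set 2 (0.15 ± 0.06, adjusted p = 0.171) were the highest. Ndufc2 gave -0.18 ± 0.17 in set 3 (0.08 ± 0.11 without WT libraries 1 and 4), and the difference from set 2 did not pass the test (-0.33 ± 0.18, adjusted p = 0.449).

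Complex II, which also belongs to the citric acid cycle, showed no called member in any set. Sdha, the flavoprotein that oxidises succinate, gave log2 fold changes of -0.06, -0.04 and -0.14 in sets 1, 2 and 3. Sdhb, the iron-sulphur subunit, gave -0.06, -0.02 and 0.08. The membrane anchors differed in sign, with Sdhc at 0.01, 0.13 and 0.09 and Sdhd at -0.12, -0.05 and -0.12, and the lowest adjusted p among them was 0.227 (Sdhc in set 2). Without WT libraries 1 and 4, the set 3 values were -0.07 for Sdha and 0.10 for Sdhd, so the sign of Sdhd turned. Sdhc in set 2 was 8.86, 8.84, 9.09, 8.98 and 9.07 in KO and 8.87, 8.79, 8.83, 8.87 and 8.82 in WT cells, with 3 KO arrays above all WT arrays.

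Complex III had the lowest median of the 5 complexes in set 2, -0.13, with 7 of 8 members below 0. Over both steady-state sets all 8 lay below 0, with a median of -0.10, and none passed the test (lowest adjusted p = 0.0982, 3 at an unadjusted p under 0.05). Uqcrc2, a core protein on the matrix side, was 9.56, 9.53, 9.51, 9.57 and 9.44 in KO and 9.67, 9.66, 9.70, 9.65 and 9.70 in WT cells of set 2. Every KO array lay below every WT array, and the log2 fold change was -0.15 ± 0.05 (adjusted p = 0.0833).

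In set 1 Uqcrc2 was 10.66, 10.62, 10.67 and 10.77 in KO and 10.65, 10.76, 10.77, 10.77 and 10.66 in heterozygous cells, so the groups overlapped throughout. Uqcrc1, its partner core protein, had the lowest value of complex III in set 2, -0.17 ± 0.08 (adjusted p = 0.206), and Uqcr10, a small membrane subunit, had the lowest in set 1, -0.14 ± 0.09 (adjusted p = 0.476). Uqcrb, which contacts the quinone site, lay near 0, at 0.02 in set 1 and -0.04 in set 2. Besides Uqcrc2, 4 members had no overlap between KO and WT arrays in set 2, all with KO lower: Cox7a2l, Cox4i1, Atp5a1 and Uqcrfs1, the Rieske iron-sulphur protein. Cox4i1 and Uqcrfs1 were named after their values were seen. These 5 members are 6.33% of those tested, against 3.0% of all genes with KO lower, and in set 1 no member had such a gap, against 2.72% of genes.

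In complex IV, Cox7a2l had the larger fall of the 2 members called in set 2. It encodes a protein related to Cox7a that links complexes III and IV in supercomplexes. Cox7a2l was 10.38, 10.37, 10.44, 10.47 and 10.35 in KO and 10.66, 10.73, 10.53, 10.64 and 10.68 in WT cells of set 2, with no overlap. It fell by 0.25 ± 0.05 (adjusted p = 0.0174), and its second cluster gave -0.21. The call was lost in 1 of 16 alternative settings, with all 8 groups in 1 fit (adjusted p = 0.103).

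The other sets differed in this gene. In set 1 Cox7a2l was 11.66, 11.64, 11.76 and 11.80 in KO and 11.66, 11.84, 11.68, 11.71 and 11.42 in heterozygous cells, with overlapping groups and a log2 fold change of 0.06 ± 0.08 (adjusted p = 0.724). In set 3 it was 10.02, 10.16, 10.23, 9.89 and 9.61 in KO and 10.33, 10.28, 10.23, 10.37 and 10.17 in WT cells, a log2 fold change of -0.29 ± 0.11 (adjusted p = 0.302). It stayed at -0.24 without WT libraries 1 and 4, and at -0.31 without these and the library labelled KO 3. With all 8 groups in 1 fit, Cox7a2l, Atp5g2 and Uqcrc2 passed in set 3 (adjusted p = 0.0174, 0.026 and 0.0342). These 3 are 3.85% of the members tested, against 7.46% of all genes that fell in that fit, and Uqcrc2 gave -0.08 in set 3 without WT libraries 1 and 4. The difference between sets 1 and 2 was not tested.

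Complex IV also holds isoforms known from other tissues, which separated from the rest. Cox6a2, Cox7a1 and Cox8b are heart and muscle forms, Cox4i2 is a lung form, and Cox6b2, Cox7b2 and Cox8c are testis forms. Cox7b2 lay below the filter level on every array (group means of 3.19 to 3.78) and was tested nowhere, and Cox8b reached it on 14 of 35 arrays. Cox7a1 had group means of 5.11 to 7.08, with filter levels of 4.77 to 4.85 in set 2 and 5.71 to 5.82 in set 1. In complex I, Ndufa4l2, a form induced by hypoxia, reached the filter level on 28 arrays. The other 77 of 80 members reached it on every array.

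Several of these dim isoforms stood at one end or the other of complex IV. Cox7a1 lay between 6.98 and 7.24 in KO and between 6.65 and 7.03 in heterozygous cells of set 1 (0.18 ± 0.08, adjusted p = 0.351), with overlapping groups. Cox6b2 in set 2 (0.18 ± 0.10, adjusted p = 0.306) and Cox6a2 in set 3 (0.12 ± 0.08, adjusted p = 0.463, and 0.05 without WT libraries 1 and 4) were the highest in those sets. But Cox6b2 was the lowest of complex IV in set 1 (-0.12 ± 0.09, adjusted p = 0.552). In the Mxd1 set Cox6a2 (-0.25), Cox6b2 (-0.20) and Cox4i2 (-0.13) lay below 0. Medians of complex IV were -0.03, -0.04 and 0.01 in sets 1, 2 and 3.

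The mean over all members gives a view of single arrays. It was 10.07, 9.98, 10.07 and 10.15 in KO and 9.97, 10.21, 10.20, 10.10 and 10.14 in heterozygous cells of set 1, and 8.93, 8.95, 9.12, 8.97 and 9.06 in KO and 9.06, 9.09, 9.01, 9.05 and 9.03 in WT cells of set 2. Heterozygous library 1 of set 1 was lower than every KO array, and KO library 3 of set 2 was higher than every WT array. Without heterozygous library 1, 70 of 78 members lay below 0 in set 1 (median -0.10), and without KO library 2, 52 of 79 did (median -0.02). The range within a group was larger than the shift between groups in both sets.

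**Figure D4:**
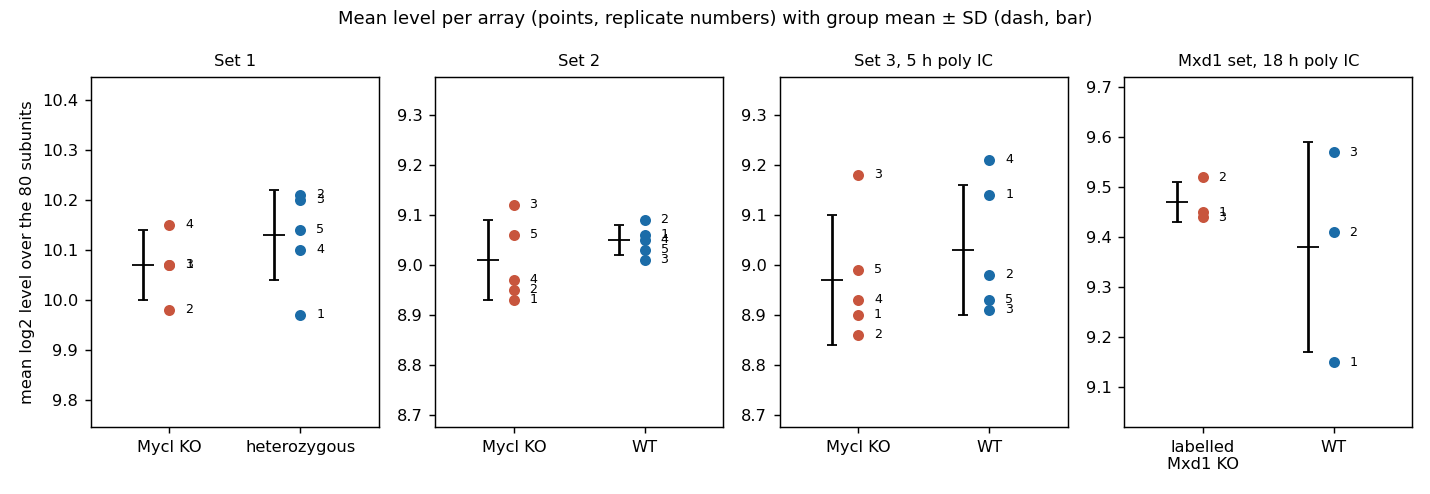
Mean log2 level over the 80 subunits (y axis) on each array (points, with the replicate number), in 4 panels for the 4 sets, tested group on the left. The dash and bar give the mean and SD of the group, and each panel spans 0.7 on its own axis. The groups overlap in all 4 sets, and WT library 1 of the Mxd1 set is the lowest of its set at 9.15.

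After poly IC no member passed the test in set 3 (lowest adjusted p = 0.292), and neither did any other gene (0.0% of genes called). At an unadjusted p under 0.05, 2 members (2.56%) lay lower and 0 higher, against 7.58% and 6.61% of genes. The mean over the members was 8.90, 8.86, 9.18, 8.93 and 8.99 in KO and 9.14, 8.98, 8.91, 9.21 and 8.93 in WT cells. WT libraries 1 and 4, with the low Ifit1, and the library labelled KO 3, with the high Mycl, were the 3 highest. The cDC1 marker mean of the same arrays was 10.01 to 10.19 in KO libraries, 10.57 and 10.72 in WT libraries 1 and 4, and 10.08 to 10.21 in the other WT libraries, and the neutrophil marker mean ranged from 6.01 to 8.07 in KO and 5.80 to 7.41 in WT.

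The sign of the shift in set 3 depended on those libraries. Without WT libraries 1 and 4 the median over the members was 0.05, with 22 of 78 below 0, and without the library labelled KO 3 it was -0.13, with 64 below. With all 3 left out it was -0.02, with 45 below. No member was called in any of these fits. By complex, the median without WT libraries 1 and 4 was 0.05 in complex I, 0.10 in II, 0.01 in III, 0.05 in IV and 0.01 in V. What part these libraries' poly IC response has in the result was not tested.

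**Figure D5:**
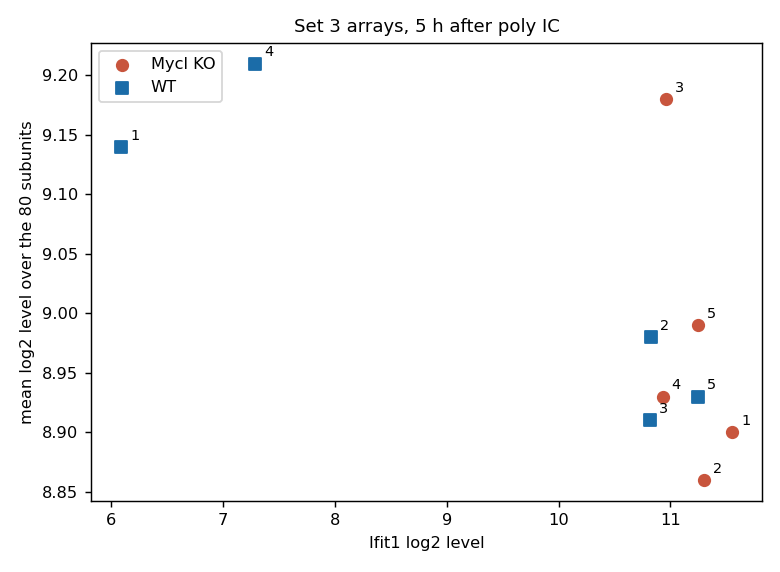
Mean log2 level over the 80 subunits (y axis) against the log2 level of Ifit1 (x axis) on the 10 arrays of set 3, with replicate numbers, for Mycl KO (circles) and WT (squares). WT libraries 1 and 4 lie far to the left with subunit means of 9.14 and 9.21, and the library labelled KO 3 lies at 9.18 among arrays with high Ifit1.

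Whether the Mycl KO effect differs after poly IC was tested as the effect of set 3 minus that of set 2. No member passed (lowest adjusted p = 0.357, against 0.0205% of all genes called). At an unadjusted p under 0.05, 0 members lay lower and 1 higher (1.27%), against 7.84% and 5.13% of genes. Of 79 members 44 lay below 0 (55.7%, against 52.6% of genes), with a median of -0.02. Without WT libraries 1 and 4 of set 3 the median was 0.08, with 9 below 0, and 0.02, with 28 below, when the library labelled KO 3 was left out too. The member with the lowest p was Uqcrfs1 (0.20 ± 0.09), also named after its values were seen. Levels after poly IC were not set against steady state, because the sets were normalized separately.

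In the Mxd1 set no member passed limma's test (0.071% of genes called, lowest adjusted p = 0.201). At an unadjusted p under 0.05, 1 member lay lower (1.28%, against 6.37% of genes) and 4 higher (5.13%, against 9.51% of genes). The 2 largest differences were in complex III. Uqcrc1 was 10.12, 10.09 and 10.14 in the libraries labelled Mxd1 KO and 9.60, 9.97 and 9.55 in WT libraries (0.41 ± 0.12, adjusted p = 0.201), with no overlap. Uqcr11, a small membrane subunit, was 9.17, 9.33 and 9.25 in the labelled KO and 8.29, 8.91 and 9.26 in WT libraries (0.43 ± 0.21, adjusted p = 0.349), with WT library 3 inside the range of the labelled KO libraries. Its second cluster gave 0.19.

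Atp5a1 was 10.25, 10.27 and 10.27 in the labelled KO and 9.86, 10.18 and 9.89 in WT libraries (0.29 ± 0.10, adjusted p = 0.243), again with no overlap. The highest of complex I was Ndufa6, an accessory subunit (0.25 ± 0.15, adjusted p = 0.441). Cox6a2 was the lowest, at 6.65, 6.44 and 6.49 in the labelled KO and 6.78, 6.75 and 6.80 in WT libraries (-0.25 ± 0.08, adjusted p = 0.234). In all, 9 members (11.5%) lay higher without overlap, against 11.8% of genes, and 1 member (1.28%, Cox6a2) lay lower without overlap, against 10.8% of genes.

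The shift in the Mxd1 set rested on single WT libraries. The mean over the members was 9.45, 9.52 and 9.44 in the labelled KO and 9.15, 9.41 and 9.57 in WT libraries. Without WT library 1, 34 of 78 members lay above 0 and the median was -0.02, and without WT library 3, 73 did and the median was 0.21. Without WT library 2, Uqcrc1 and Atp5a1 passed the test (adjusted p = 0.0293 and 0.0446), where 568 genes did. Of the 34 members below 0 in all 3 Mycl sets, 33 lay above 0 in the Mxd1 set, as did 63 of all 78 members. Without WT library 1, 17 of these 34 lay above 0, beside 34 of all 78. The same share was not taken over all genes. WT library 1 also had the lowest cDC1 marker mean, 10.47, against 10.81 to 10.88 in the labelled KO and 10.74 and 10.77 in the other WT libraries. The mean of the 2 mitochondrially encoded genes on the array was 9.23 to 9.32 in the labelled KO and 8.43, 9.08 and 9.39 in WT libraries. The part of WT library 1 in these marker levels and in the result was not tested.

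The position of members near the Mycl allele was also looked up. Ndufs5, 0.71 Mb from Mycl on chromosome 4, fell in Mycl KO cells by 1.21 ± 0.13 in set 2 (adjusted p = 0.000115) and by 0.91 ± 0.11 over both sets. Within 20 Mb of Mycl lie 2 members. Uqcrh, the hinge protein of complex III, 6.92 Mb away (chr4:116066965-116075070, GRCm38.p6), gave -0.00 in set 1, -0.10 in set 2 and 0.04 in set 3 (lowest adjusted p = 0.358, and -0.05 in set 3 without WT libraries 1 and 4), and Sdhb, 17.96 Mb away, gave the values above. No member lies within 20 Mb of Mxd1 on chromosome 6.

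Genes around the chain were called as follows, beside the 2.36% of all genes that fell in set 2 and the 2.43% over both steady-state sets. Of 42 tested assembly factors of complexes I to V, 0 passed in the single sets, and over both steady-state sets Foxred1, a complex I factor, fell by 0.18 ± 0.04 (adjusted p = 0.0215). Of 10 carriers and further subunits, Slc25a5 and Slc25a4, the ADP/ATP carriers that exchange the product of complex V, fell in set 2 by 0.24 ± 0.06 and 0.21 ± 0.06 (adjusted p = 0.0386 and 0.0421). Of 18 genes of the citric acid cycle and pyruvate dehydrogenase, Sucla2 fell by 0.25 ± 0.07 and Idh3b by 0.22 ± 0.06 in set 2 (adjusted p = 0.0444 and 0.0476).

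Among 18 regulators of mitochondrial biogenesis, Nrf1, the factor of the NRF1 palindrome, rose by 0.28 ± 0.06 in set 2 (adjusted p = 0.0188). Pprc1, a coactivator of the same pathway, and Tfb2m, which starts mitochondrial transcription, fell over both sets by 0.27 ± 0.06 and 0.23 ± 0.06 (adjusted p = 0.0135 and 0.0275). Of 12 genes of coenzyme Q synthesis and use, Coq4 and Coq10a fell over both sets, each by 0.18. The array carried 2 of the mitochondrially encoded subunits, ND3 and COX2, with 0 calls in any comparison and log2 fold changes of -0.17 to -0.09 in set 1 and -0.32 to -0.07 in set 2. Among markers of other cell types, 5 of 34 fell and 8 rose in set 2, against 2.36% and 3.78% of all genes. These called markers ranged from Cd14 (-1.42 ± 0.10) to Cd209a (1.37 ± 0.25), and the subunits of set 2 from -0.25 to 0.18. In sets 1 and 3, 0 markers passed. Over both steady-state sets 3 of 35 fell and 3 rose, against 2.43% and 2.01% of genes. In the Mxd1 set 1 of 32 fell, against 0.0426% of genes. Whether other cells in the sort have a part in the small shifts of the subunits was not tested, and in bulk RNA fewer cells of a type and less RNA per cell cannot be told apart.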

How the data were processed

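Total RNA of sorted splenic cDC1 was amplified with the GeneChip WT Pico kit and hybridised to Affymetrix arrays, per the labels' protocols. The authors deposited log2 values, made with the Affymetrix Expression Console and RMA per the submitters' processing notes (no version is given in the sources used here). RMA corrects the background, equalises the arrays and summarises the probes of each of the 35556 clusters, so a fold change is measured against the rest of the array. The spike-ins named in the design were not used here, and a change in total RNA per cell cannot be seen. The number of arrays limits the precision.

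The platform annotation gave the names of clusters: 21789 had 1 symbol, 1621 had several and 12146 were unnamed. All 80 members were found in the RefSeq gene table (GRCm38.p6). Testing required a level no lower than the array's 30th percentile over named clusters, in a number of arrays equal to the size of the smaller group or more, so 1 or 2 members dropped out of each comparison. The groups compared were fitted with limma 3.58.1 (lmFit, then eBayes) under R 4.3.3. P-values are two-sided and were adjusted by Benjamini-Hochberg across every gene in the fit, and genes under 0.05 are called. The steady-state fit took the set as a block. The code was tested on simulated data.

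The members and gene lists were chosen with earlier results of these data known. Named with values were members called in any of the 6 comparisons, the lowest and highest of each complex in each set, and those within 20 Mb of Mycl or Mxd1, beside the exceptions stated. Lowest or highest values not given above were Atp5md (0.03) in set 1 and Uqcr10 (0.01) in set 2. In set 3 they were Ndufa4l2 (0.16), Uqcrc2 (-0.24), Uqcrb (0.10) and Atp5k (0.06). Without WT libraries 1 and 4 these 4 gave 0.20, -0.08, 0.13 and 0.07. In the Mxd1 set they were Ndufa3 (-0.10), Sdhc (-0.00), Sdha (0.17), Uqcrb (-0.13), Cox7a2l (0.20) and Atp5k (-0.05). Alternatives were no filter, quantile normalization, the mean of a gene's clusters, array weights, all 8 groups in 1 fit, a replicate block, and leaving out each replicate. Fits of set 3 without WT libraries 1 and 4, with and without the library labelled KO 3, were added after seeing the data. Figures were drawn with matplotlib 3.10.9.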

Additional observations from a re-analysis of the deposited data

Results flagged for a closer look

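Of 90 groups of values tested for a single array far from the others of its group, 4 gave one, and chance alone gives about 1 in 20 groups. The mean over the 4 subunits of complex II was 9.41 in the library labelled Mycl KO 3 of set 3, above the other 4 KO libraries of that set. The same library stood at 8.87 for Mycl, just below the WT range of 9.03 to 9.81. Mycl was 9.65 in heterozygous library 5 of set 1, below the other heterozygous libraries. Ndufs5, 0.71 Mb from Mycl, was 8.04 in WT library 2 of set 2, above the other WT libraries.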

How the results depend on the processing

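The number of members called in set 2 was 2, and 1 with no filter, 0 with all 8 groups in 1 fit, 1 with a replicate block and 3 with array weights. In set 3 it was 0, and 3 with all 8 groups in 1 fit. Over both steady-state sets it was 5, 1 (Atp5g2, adjusted p = 0.0328) with a replicate block, and 6 each with array weights and quantile normalization. Leaving out 1 replicate gave 1 to 3 calls in set 2, 3 to 6 over both sets, 0 in sets 1 and 3 and for set 3 minus set 2, and 0 to 2 in the Mxd1 set. Replicate numbers are not stated to pair the arrays, and same-numbered arrays did not deviate together (correlations from -0.398 to 0.348), so the block has no basis in the design. Of 341 alternative values other than those that leave out 1 replicate, 311 stayed close or kept their call, 22 moved, 8 lost a call and 0 changed the sign of a called value. A median counted as close when it shifted by less than the SD of the array means, whatever its sign. A median can thus change sign and still count as close. In set 3 the median went from -0.07 to 0.05 without WT libraries 1 and 4. Over all genes, calls were 3 in set 1 (141 with array weights, 1 with a replicate block, 1 to 7 without 1 replicate), 861 in set 2 (358 with all 8 groups, 408 to 1007 without 1 replicate), 0 in set 3 (1 with no filter or a replicate block, 72 with array weights, 1910 with all 8 groups, 0 to 2 without 1 replicate, 10 without WT libraries 1 and 4 and 63 without these and the library labelled KO 3), 10 in the Mxd1 set (18 with array weights, 235 with all 8 groups, 16 with a replicate block, 3 to 568 without 1 replicate) and 3 for set 3 minus set 2 (74 with array weights, 1 to 30 without 1 replicate, 41 and 51 without the same libraries). For the steady-state and difference fits, all 8 groups in 1 fit was not an alternative. SEs of single subunits ranged from 0.03 to 0.09 over both steady-state sets and from 0.04 to 0.21 within single sets, which limits what single subunits can show.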
